A study of Mus musculus with 2 samples.

Results

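Heat shock proteins and chaperonins were examined as a gene module in single T cells sorted from lymph node and from B16 melanoma. The module took every gene whose symbol begins with Hspa, Hspb, Hspd, Hspe, Hsph, Hsp9 or Dnaj, together with the numbered Cct genes, Tcp1 and Bag3, which gave 84 of the 27998 genes in the deposited lists. Choosing by symbol uses no measured value, but the choice was made with earlier results of these data known. Droplet 3' RNA sequencing had been run on Foxp3Cre-YFP mice of the C57BL/6 background aged 5 to 8 weeks, in which the Foxp3 locus, active in regulatory T (Treg) cells, drives Cre recombinase and a yellow fluorescent protein. All mice carried this allele. Cells came from lymph node of unchallenged animals (1 library) or from B16 tumour, a transplanted mouse melanoma line, at day 14 (1 library). Neither the gate of the sort nor how many mice were pooled is stated in the labels. Since each tissue has 1 library, no difference between tissues has a replicate check, so none was tested. Each ratio carries a 95% interval that covers counting error only.

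Heat shock proteins are molecular chaperones that bind unfolded or partly folded proteins. HSP70 proteins (Hspa genes) work in ATP-driven cycles that J-domain proteins (Dnaj genes) start and nucleotide exchange factors such as Bag3 and Hsph1 end, and HSP90 proteins act later in folding, on kinases and receptors among other clients. Separate sets serve the cytosol, the endoplasmic reticulum (ER) and the mitochondrion, where Hspd1 and Hspe1 form a closed folding chamber. The cytosolic chamber, TRiC, is built from Tcp1 and the Cct subunits and folds actin and tubulin. Some cytosolic members are low at rest and are switched on by heat shock factor 1, which binds inverted repeats of nGAAn, whereas ER members answer to the unfolded protein response.

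The promoters of members that the results turn on are shown first, because inducible members are known for the repeat that heat shock factor reads. The Hspa1a and Hspa1b windows hold the 250 bases before each RefSeq start (GRCm38.p6, chr17:34972157-34972406 and chr17:34959239-34959488, both on the minus strand). Capitals mark the inverted repeat GAANNTTC.

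Hspa1a: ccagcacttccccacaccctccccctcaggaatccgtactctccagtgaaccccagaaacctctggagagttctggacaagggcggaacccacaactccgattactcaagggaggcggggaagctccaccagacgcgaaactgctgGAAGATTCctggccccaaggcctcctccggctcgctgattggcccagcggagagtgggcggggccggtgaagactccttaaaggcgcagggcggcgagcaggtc
Hspa1b: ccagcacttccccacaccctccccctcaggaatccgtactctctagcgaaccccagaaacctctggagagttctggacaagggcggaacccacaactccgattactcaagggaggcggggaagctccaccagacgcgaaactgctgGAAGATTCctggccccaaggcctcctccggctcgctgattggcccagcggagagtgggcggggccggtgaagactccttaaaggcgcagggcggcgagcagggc

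These 250-base windows differed at 3 positions, and each held 1 copy of the repeat. The next 3 lines show 30-base sites with the same kind of repeat in capitals. They come from Hsph1 (chr5:149636351-149636380, minus strand), from the region that Hspd1 and Hspe1 share head to head (chr1:55088053-55088082, plus strand, read towards Hspe1), and from Dnajb6 (chr5:29735844-29735873, plus strand). The Hsph1 site has a single TTCNNGAA, the Dnajb6 site has a 3-unit form (GAANNTTC and, after 2 more bases, GAA), and the Hspe1 site has both 3-unit forms (the former, and TTCNNGAA followed after 2 bases by TTC) overlapping each other.

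Hsph1: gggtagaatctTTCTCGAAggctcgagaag
Hspe1: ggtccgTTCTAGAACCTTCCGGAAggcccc
Dnajb6: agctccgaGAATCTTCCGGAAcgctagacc

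The last lines show ER members with the ER stress element (CCAAT, 9 bases of any kind, CCACG) in capitals. They are 30 bases before Hspa5 (chr2:34772020-34772049, plus strand) and 185 bases before Hsp90b1 (chr10:86705510-86705694, minus strand), where 1 copy lies on each strand.

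Hspa5: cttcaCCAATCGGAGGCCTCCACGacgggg
Hsp90b1: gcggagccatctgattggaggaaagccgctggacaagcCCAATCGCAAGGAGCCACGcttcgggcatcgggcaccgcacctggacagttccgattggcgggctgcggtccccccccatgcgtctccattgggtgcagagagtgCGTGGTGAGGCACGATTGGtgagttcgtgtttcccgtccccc

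Of the 84 members, 69 had a window of 250 bases among the RefSeq promoters. Some genes had several windows, and a gene was counted when any of its windows held the motif. A 2-unit repeat (GAANNTTC or TTCNNGAA, either strand) was present in 17 of these 69 (24.6%), against 14.5% of all 27025 genes with a window. Among inducible members it was present in 6 of 8, namely Hspa1a, Hspa1b, Hsph1, Dnaja4, Dnajb4 and Hspb1, and among constitutive cytosolic members in 0 of the 8 with a window. Hspa8, Hsp90ab1 and the inducible Hsp90aa1 had no entry in the promoter table. The mitochondrial members that held it were Hspd1 and Hspe1, and the TRiC members were Cct2 and Cct5. Of the genes named here, Dnaja4, Dnajb4, Hspd1, Cct2 and Cct5 also had a window without it. A 3-unit repeat, which contains the 2-unit form, was found in 3 members (Hspd1, Hspe1 and Dnajb6) and in 0.514% of all genes. The ER stress element was found in 3 of 12 ER members (Hspa5, Hsp90b1 and Dnajc3), in no other member, and in 0.130% of all genes. The ATF4 composite element, TGATGNAA, was found in Hspa14 alone, against 3.91% of all genes. These matches describe letters within 250 bases and do not show binding.

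Cells numbered 2202 from lymph node, with 10681101 unique molecular identifiers (UMIs, each 1 counted molecule) and a median of 4100 UMIs per cell, and 1457 from tumour, with 16669263 UMIs and a median of 8766. Mitochondrial UMIs had medians of 2.67% and 1.39%. The libraries shared 1 cell barcode. All 7 Treg markers and all 5 T cell markers had UMIs in both libraries. The Treg list summed to 2210 CPM (counts scaled to equal library totals) in lymph node and 3491 CPM in tumour. Its genes did not move together. Foxp3 (21.9 and 17.2 CPM), Il2ra (156 and 149), Nrp1 (122 and 72.3) and Izumo1r (755 and 362) were lower in tumour. Ctla4 (104 and 673 CPM), Ikzf2 (725 and 1038) and Tnfrsf18 (325 and 1180) were higher there. At full depth the share of cells with a Foxp3 UMI was 9.58% (lymph node) and 16.7% (tumour). A list for conventional (non-Treg) CD4 T cells summed to 262 and 193 CPM, but from different genes. Igfbp4 (202 and 1.08 CPM), Cd40lg (20.8 and 4.98) and Ifngr2 (29.2 and 3.18) were lower in tumour. Bhlhe40 (9.92 and 184 CPM) was higher there. Of 7 B16 melanoma markers 7 had UMIs in tumour, at 34.1 CPM in cells against 1232 CPM in barcodes with 10 to 100 UMIs, which are near-empty droplets holding free RNA. A CD8 T cell list summed to 168 and 2756 CPM with Cd8a at 0 in both. Its Ccl5 (52.2 and 1748 CPM) and Nkg7 (98.1 and 987) are also made by activated T cells. Cd8b1, also listed, was at 17.6 CPM (lymph node) and 19.5 CPM (tumour). At full depth the share of cells with a Cd8b1 UMI was 7.58% (lymph node) and 16.7% (tumour). The 9 macrophage and monocyte markers summed to 328 and 403 CPM with Adgre1 at 0, and 8 of them had UMIs in tumour. Most of that sum was Ctss (322 and 270 CPM), and Ly6c2 was at 4.59 and 124 CPM. A dendritic cell list summed to 145 CPM in lymph node cells and 559 CPM in tumour cells with 5 of its 8 genes at 0 in tumour, and most of it was Bst2 (137 and 548 CPM), which interferon also induces in other cells, while H2-Aa was at 1.97 and 9.54 CPM. Natural killer markers summed to 0.936 and 1.80 CPM (Ncr1 at 0 in the cells of both libraries). Stromal markers summed to 0.843 and 1.62 CPM (Pdgfra at 0 in both, Sparc at 0 and 1.20 CPM), and neutrophil and mast cell markers to 0.749 and 0.300 CPM (S100a8 at 0 in both). The part of these other cell types in the module's levels was not tested.

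The module made up 0.678% of all lymph node UMIs (6785 CPM) and 0.979% of all tumour UMIs (9791 CPM), a 1.44-fold higher summed level in tumour (1.43 to 1.46). Hspa8, Hsp90ab1 and Hspe1 alone accounted for 43.4% of module UMIs in lymph node and 47.1% in tumour. In the cells of either library no UMI was counted for 10 members: Hspa1l, Cct8l1, Hspb3, Hspb7, Hspb8, Dnajb7, Dnajb8, Dnajc22, Dnajc5b and Dnajc5g. Another 9 had fewer than 50 UMIs over both libraries, and 65 reached 50. Among these 65, 11 exceeded lymph node at least 2-fold in tumour, as did 13.2% of the 9976 genes with 50 UMIs, and 2 were at least 2-fold lower, against 7.70% of all such genes. Read against 13.2%, the count of 11 in 65 lies near the share for all genes. The whole interval was beyond 2-fold for 7 members on the higher side (8.80% of all genes) and for 0 on the lower side (4.17%). The whole interval lay above a ratio of 1 for 44 members (41.7% of all genes) and below it for 11 (25.2% of all genes). The median log2 ratio was 0.37 over the 65 members and 0.14 over all genes. Scaling matters here. With totals that leave out mitochondrial-encoded and ribosomal protein genes, 6 members were at least 2-fold higher and 5 at least 2-fold lower, against 9.12% and 13.5% of all genes, and the median over all genes moved from 0.14 to -0.20. The group medians were then 0.64 for inducible, 0.15 for constitutive and -0.03 for other J-domain members.

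**Figure D1:**
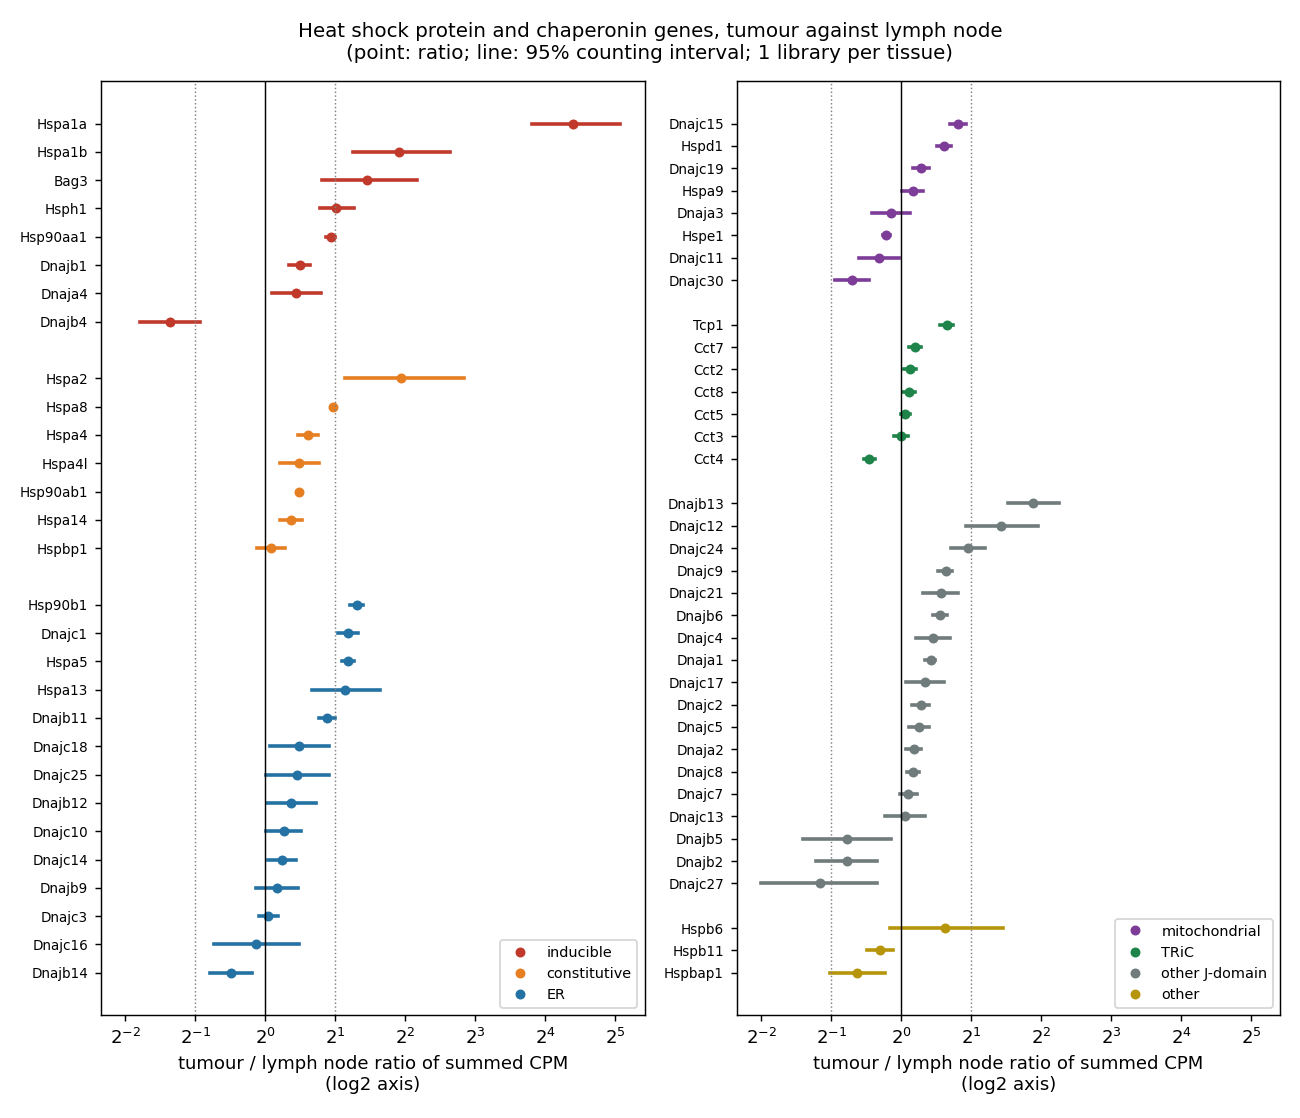
Tumour to lymph node ratio of summed CPM for the 65 members with at least 50 UMIs, grouped by role (log2 axis, points are ratios, lines are 95% counting intervals, dotted lines mark 2-fold either way, 1 library per tissue). Hspa1a stands at 21.1, far right of all other members, while mitochondrial and TRiC members all lie inside the dotted lines.

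Inducible cytosolic members were the group with the highest median, 0.97 on the log2 scale over 8 of 9 members. Of these, 4 were at least 2-fold higher in tumour (13.2% of all genes with 50 UMIs) and 1 was at least 2-fold lower (7.70%). The group summed to 357 CPM in lymph node and 678 CPM in tumour (1.90-fold higher, 1.83 to 1.97). Hspa1a (ENSMUSG00000091971, chr17:34969190-34972156, minus strand), the classic stress-inducible HSP70, had 23 UMIs (2.15 CPM) in lymph node and 758 UMIs (45.5 CPM) in tumour, 21.1-fold higher (14.0 to 33.5). Its neighbour Hspa1b (ENSMUSG00000090877, chr17:34956436-34959238) had 22 UMIs (2.06 CPM) and 129 UMIs (7.74 CPM), 3.76-fold higher (2.38 to 6.20). These genes encode nearly identical proteins, so how reads were divided between them is uncertain and their separate ratios should be read together. Bag3, which links HSP70 to selective autophagy, had 24 UMIs (2.25 CPM) and 103 UMIs (6.18 CPM), 2.75-fold higher (1.75 to 4.49). Hsph1, the HSP110 exchange factor whose promoter site is shown above, had 184 UMIs (17.2 CPM) and 581 UMIs (34.9 CPM), 2.02-fold higher (1.71 to 2.40). Its ratio stayed past 2 in 4 of 14 alternative settings, with a range of 1.60 to 2.23.

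Hsp90aa1, the inducible HSP90, had 2780 UMIs (260 CPM) and 8270 UMIs (496 CPM), 1.91-fold higher (1.83 to 1.99). Dnajb1, the main HSP40 partner of Hspa1a, had 529 UMIs (49.5 CPM) and 1160 UMIs (69.6 CPM), 1.41-fold higher (1.27 to 1.56). Dnaja4, a further inducible J-domain protein, had 99 UMIs (9.27 CPM) and 210 UMIs (12.6 CPM), 1.36-fold higher (1.07 to 1.74). Dnajb4 went the other way. Its window at chr3:152193846-152194095 holds the heat shock repeat, and that at chr3:152210084-152210333, where the annotated gene starts, does not. Dnajb4 had 125 UMIs (11.7 CPM) in lymph node and 76 UMIs (4.56 CPM) in tumour, 2.57-fold lower in tumour (1.91 to 3.46). With every cell thinned to the lymph node UMI minimum the Dnajb4 ratio was 0.106, from only 57 lymph node UMIs and 4 tumour UMIs. With every cell weighing the same it was 0.359. Hspb1, the small heat shock protein HSP27, had 23 lymph node UMIs and 8 tumour UMIs and fell under the minimum of 50.

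A small fraction of tumour cells carried most Hspa1a. At full depth 174 of 1457 tumour cells and 16 of 2202 lymph node cells had a UMI. The highest tumour cell held 72 UMIs and the highest lymph node cell 3. Cells with 3 or more Hspa1a UMIs numbered 63 in tumour, and 18 held 10 or more. The top 15 tumour cells, 1% of all, held 49.2% of Hspa1a UMIs, against 5.71% of Hspa8 UMIs, 8.62% of Dnajb1 UMIs and 10.9% of Hsp90aa1 UMIs in the top 15 cells for each of those genes. Without the 15 cells richest in Hspa1a, a choice made after seeing the data, its ratio was 10.9. To compare shares at 1 depth, each cell was thinned to the UMI minimum of the lymph node library with none left out. Hspa1a was then seen in 5.28% of tumour cells (4.19% to 6.56%, exact Clopper-Pearson) and 0.227% of lymph node cells (0.0738% to 0.529%). Hspa1b was seen in 1.37% (0.840% to 2.11%) and 0.409% (0.187% to 0.774%). Hspa8 was seen in 97.0% and 85.2%, so the constitutive gene was near universal where the inducible one was sparse.

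**Figure D2:**
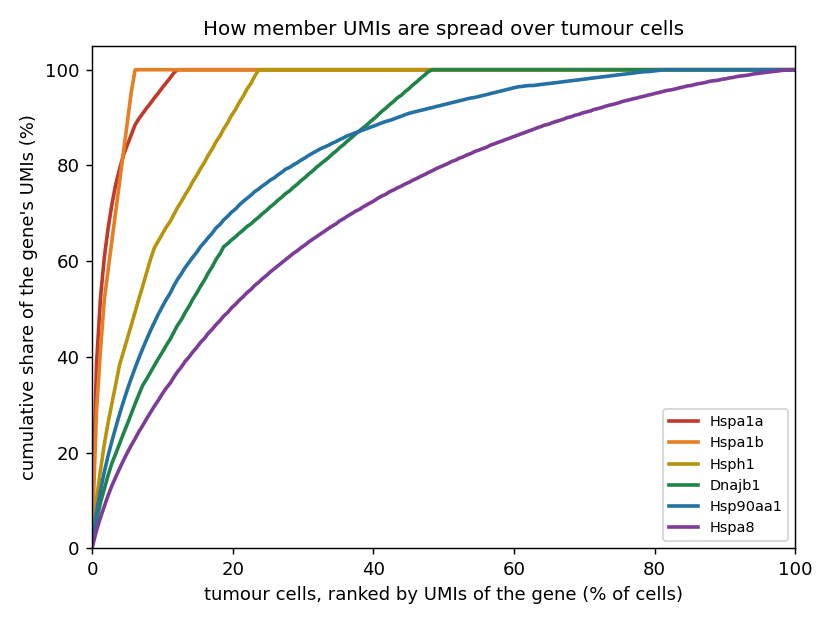
Cumulative share of a gene's UMIs (y axis, %) over tumour cells ranked from most to fewest UMIs of that gene (x axis, % of 1457 cells), for 6 cytosolic members. The Hspa1a and Hspa1b lines climb within the first few percent of cells, whereas Hspa8 rises across nearly all cells.

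Some other members were also higher in tumour cells with Hspa1a. Among thinned tumour cells, 77 had an Hspa1a UMI and 1380 did not, at median full depths of 8712 and 8778 UMIs. Hspa1b was detected in 9.09% (3.73% to 17.8%) of the former and 0.942% (0.503% to 1.61%) of the latter, and its level was 7.97-fold higher (3.0 to 19.3). Dnajb1 was detected in 18.2% and 9.78%, at a level 2.16-fold higher (1.23 to 3.59). Hsp90aa1 was 1.38-fold higher (1.07 to 1.77), Dnaja1 1.53-fold higher (1.15 to 2.01) and Hspa8 1.23-fold higher (1.11 to 1.36). Hspa5 of the ER, at 1.28-fold (0.939 to 1.70), and Hspd1 of the mitochondrion, at 0.962-fold (0.519 to 1.64), had intervals that hold 1. So did Hsph1, at 2.11-fold (0.876 to 4.40), and Bag3, at 2.76-fold (0.302 to 12.2). Dnaja4 had 0 UMIs in the 77 cells and 32 in the others, and Dnajb4 0 and 4. Of 42 members with 50 UMIs after thinning, 5 had a whole interval above 1, 0 had one below 1, and 37 had one that holds 1, where 2.67% of all 4943 such genes were above 1. Of those 5, the one not given above was Hsp90ab1, at 1.28-fold (1.12 to 1.46). Intervals narrow as UMIs rise, and the share over all genes was not matched for UMIs. After thinning, Hspa8, Hsp90ab1, Hsp90aa1, Dnaja1 and Dnajb1 had 6499, 3484, 965, 724 and 158 tumour UMIs. Reads assigned to the wrong copy cannot be told apart here from joint detection of Hspa1a and Hspa1b.

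Immediate-early genes, which are also known to respond to tissue dissociation, moved with the inducible members between the libraries. Of 12 listed, 11 reached 50 UMIs, 7 stood at least 2-fold higher in tumour, and 1 was at least 2-fold lower (Btg2, 0.479 of its lymph node level, 0.447 to 0.514). The shares over all genes with 50 UMIs were 13.2% and 7.70%. Summed over the list the level was 638 CPM in lymph node and 1865 CPM in tumour. The 3 highest by the bound nearest to 1 were Fos, 12.9-fold higher (9.78 to 17.3), Ier3, at 0.655 and 13.1 CPM (interval of the ratio 9.52 to 50.2), and Dusp1, 9.30-fold higher (8.23 to 10.6). Their part in the module's result was not tested. In tumour cells that held Hspa1a after thinning, Jun was 2.22-fold higher (1.21 to 3.82) and Dusp1 1.37-fold higher (1.05 to 1.78), while Fos was at 1.33-fold (0.732 to 2.25) and Nr4a1 at 0.210-fold (0.0431 to 0.621). Leaving out all cells with a Fos, Fosb, Atf3 or Ier3 UMI, a choice also made after seeing the data, kept 880 tumour cells and an Hspa1a ratio of 22.8. Leaving out all cells with 3 or more immediate-early UMIs kept 59 tumour cells (391150 UMIs) and 1199 lymph node cells (4768066 UMIs). The ratio of Hspa1a was then 19.0, that of Hspa1b 1.35, that of Dnajb13 2.29 and that of Dnajc12 6.45. At that size a few tumour UMIs set the ratio of a sparse gene. Bag3 and Hspa13 had no tumour UMI in those 59 cells, and Hspd1 was at 0.938 and Hspa9 at 0.47.

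Free RNA also held these transcripts. In near-empty tumour droplets Hspa1a stood at 79.2 CPM, above its 45.5 CPM in cells, and Hspb1 at 7.17 CPM against 0.480 CPM in cells. The melanoma gene Tyrp1 stood at 383 CPM in those droplets and 10.1 CPM in cells, or 2.65% of its free level. At that same 2.65%, free RNA would give 2.10 CPM of Hspa1a, which is 4.61% of the level in tumour cells, and 39.6% of the Hspb1 level. Other genes of foreign cells gave higher shares, 3.27% for Tyr, 4.16% for Apoe, 6.32% for Sox10 and 10.7% for C1qc, the last from 0.540 CPM in cells. At the C1qc share free RNA would give 8.47 CPM of Hspa1a, 18.6% of its level, and would exceed the Hspb1 level in cells. The Hspa1a ratio with that amount taken off, an alternative added after seeing the data, was 17.2. With the Tyrp1 amount subtracted in an alternative added after seeing the data, the Hspa1a ratio was 20.7. Without the cells holding a Tyrp1, Tyr or Sox10 UMI, also added later, 1288 tumour cells were left and the ratio was 19.5.

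**Figure D3:**
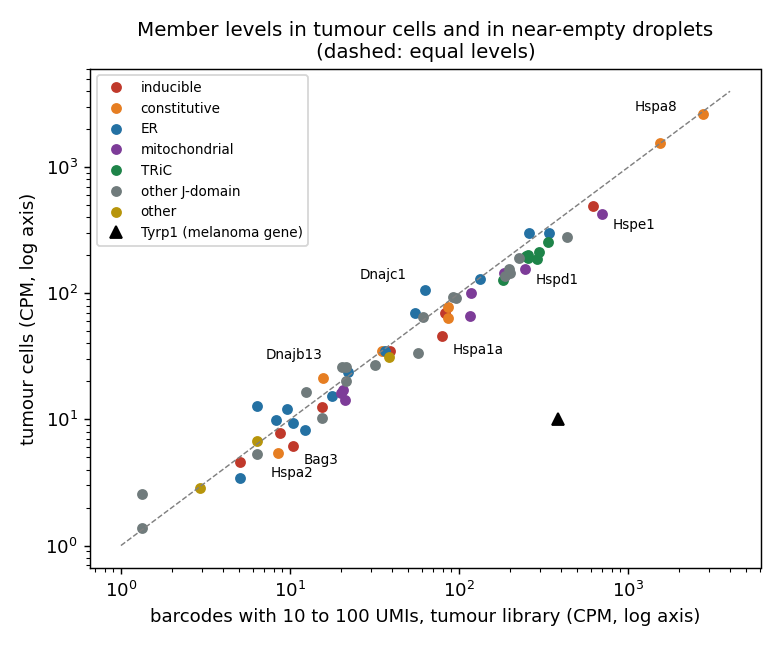
Level of each of the 65 members with 50 UMIs in tumour cells (y axis, CPM, log scale) against barcodes with 10 to 100 UMIs in the tumour library (x axis, CPM, log scale), coloured by group, with Tyrp1 as a black triangle. Members lie near the dashed line of equal levels, while Tyrp1 is at 383 CPM in near-empty droplets and 10.1 CPM in cells.

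The constitutive cytosolic group held the most abundant transcripts of the module, read here per molecule because 3' counting does not scale with gene length. Its 7 members with 50 UMIs had a median log2 ratio of 0.49, and the group summed to 2601 CPM in lymph node and 4387 CPM in tumour (1.69-fold higher, 1.66 to 1.71). Hspa8, the housekeeping HSC70 that folds new proteins and uncoats clathrin, had 14317 UMIs (1340 CPM) and 43847 UMIs (2630 CPM), 1.96-fold higher (1.93 to 2.0). Hsp90ab1, the constitutive HSP90, had 11872 UMIs (1111 CPM) and 25910 UMIs (1554 CPM), 1.40-fold higher (1.37 to 1.43). Hspa4, an HSP110-type exchange factor, had 542 UMIs (50.7 CPM) and 1294 UMIs (77.6 CPM), 1.53-fold higher (1.38 to 1.69). Hspa2, a member best known from the testis, was the only one of the 7 past 2-fold (13.2% of all genes with 50 UMIs were at least 2-fold higher). Hspa2 had 15 UMIs (1.40 CPM) and 90 UMIs (5.40 CPM), 3.84-fold higher (2.21 to 7.15). Its value depended on the cells included and their depth, and small counts lie behind both ends. It ran from 1.64 in cells with a Foxp3 UMI (211 lymph node and 244 tumour cells) to 8.06 with each cell thinned (3 and 16 UMIs). The remaining members lay between 1.06 (Hspbp1) and 1.40 (Hspa4l).

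ER chaperones were higher in tumour as a summed level, 552 CPM in lymph node against 1041 CPM in tumour (1.89-fold higher, 1.83 to 1.94). All 14 members reached 50 UMIs, 4 were at least 2-fold higher (13.2% of all genes with 50 UMIs), none was at least 2-fold lower (7.70%), and the median log2 ratio was 0.41. Hspa5 (BiP, chr2:34771970-34777547), the ER HSP70, had 1419 UMIs (133 CPM) and 5034 UMIs (302 CPM), 2.27-fold higher (2.14 to 2.41). Hsp90b1 (GRP94, chr10:86690209-86705509), the ER HSP90 that folds integrins and Toll-like receptors, had 1310 UMIs (123 CPM) and 5043 UMIs (303 CPM), 2.47-fold higher (2.32 to 2.62). Dnajc1, a J-domain protein of the ER membrane, had 498 UMIs (46.6 CPM) and 1761 UMIs (106 CPM), 2.27-fold higher (2.05 to 2.51). Hspa13, a minor ER-bound HSP70, had 48 UMIs (4.49 CPM) and 165 UMIs (9.90 CPM), 2.20-fold higher (1.59 to 3.10), and was past 2-fold in 10 of 14 alternatives, with 1.23 in cells holding a Foxp3 UMI. Dnajb11, the BiP partner ERdj3, had 762 UMIs (71.3 CPM) and 2191 UMIs (131 CPM), 1.84-fold higher (1.70 to 2.0).

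Not every ER member followed. Dnajc3, whose window also holds the ER stress element, was at 1.03-fold (0.936 to 1.13), and Dnajb9, a repressor of the stress sensor IRE1, was at 1.12-fold (0.911 to 1.38). Dnajb14 was 1.41-fold lower in tumour (1.15 to 1.73). With totals that leave out mitochondrial-encoded and ribosomal protein genes, Hspa5 was at 1.80, Hsp90b1 at 1.95, Dnajc1 at 1.79 and Hspa13 at 1.74, so these calls ended, and the group median was 0.08 against -0.20 over all genes. At equal depth Hspa5 was seen in 19.5% of lymph node cells (17.9% to 21.2%) and 36.7% of tumour cells (34.2% to 39.3%), and Hsp90b1 in 15.7% (14.2% to 17.3%) and 32.7% (30.3% to 35.2%).

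Other ER folding and stress genes were counted from a list of 18. All reached 50 UMIs, 6 were at least 2-fold higher in tumour (13.2% of all genes with 50 UMIs), none was at least 2-fold lower (7.70%), and the median log2 ratio was 0.70. Sdf2l1, a partner of BiP, was 2.61-fold higher (2.34 to 2.91), Calr, the glycoprotein chaperone calreticulin, 2.35-fold higher (2.25 to 2.46), and Manf, a secreted ER stress protein, 2.10-fold higher (1.97 to 2.23). The others past 2-fold were P4hb (2.16), Atf6 (2.77) and Ern1 (3.60, from 8 and 45 UMIs). Ddit3, the transcription factor CHOP, was lower in tumour, at 31.5 CPM in lymph node and 25.6 CPM in tumour (ratio 0.812, 0.702 to 0.940), and Herpud1 was at 0.896 (0.804 to 0.999). Without cells holding 3 or more UMIs of the mitotic list, 3 of the 18 were at least 2-fold higher (14.1% of all genes in that setting). Totals that leave out mitochondrial-encoded and ribosomal protein genes were not applied to this list. They lower every ratio by the same factor and took Hsp90b1 from 2.47 to 1.95. Calr, P4hb and Manf, with smaller ratios than Hsp90b1, would therefore not stay past 2-fold.

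Mitochondrial members stood nearly level between the tissues as a group, with 885 CPM in lymph node and 940 CPM in tumour (1.06-fold, 1.04 to 1.09) and a median log2 ratio of 0.00. None of the 8 was 2-fold apart (13.2% of all genes with 50 UMIs were higher and 7.70% lower), and they pointed in different directions. Hspd1 (HSP60, chr1:55077835-55088243, minus strand), the barrel of the mitochondrial chaperonin, had 1087 UMIs (102 CPM) and 2586 UMIs (155 CPM), 1.52-fold higher (1.42 to 1.64). Hspe1 (HSP10, chr1:55088132-55091307, plus strand), its lid, had 5281 UMIs (494 CPM) and 7086 UMIs (425 CPM), 1.16-fold lower (1.12 to 1.21). The annotated genes overlap at their starts on opposite strands, and no label says whether counting used strand. Hspa9, the mitochondrial HSP70 mortalin, had 635 UMIs (59.5 CPM) and 1109 UMIs (66.5 CPM), 1.12-fold higher (1.01 to 1.24). The direction turned under other scalings, with a ratio of 0.885 on totals without mitochondrial-encoded and ribosomal protein genes, 0.900 with every cell weighing the same and 0.916 with cells thinned. Dnajc15, a J-domain protein of the import motor, had 890 UMIs (83.3 CPM) and 2433 UMIs (146 CPM), 1.75-fold higher (1.62 to 1.89). Dnajc19, another import motor protein, had 877 UMIs (82.1 CPM) and 1665 UMIs (99.9 CPM), 1.22-fold higher (1.12 to 1.32).

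The remaining mitochondrial members were lower or level. Dnaja3, the J-domain partner of Hspa9, had 193 UMIs (18.1 CPM) and 271 UMIs (16.3 CPM), with an interval from 0.745 to 1.09 that holds 1. Dnajc11, tied to the cristae-organising complex, had 189 UMIs (17.7 CPM) and 236 UMIs (14.2 CPM), 1.25-fold lower (1.03 to 1.52). Dnajc30, known from complex I repair, had 298 UMIs (27.9 CPM) and 285 UMIs (17.1 CPM), 1.63-fold lower (1.38 to 1.93), and its locus overlaps Bud23 on the opposite strand. From a list of 12 genes of mitochondrial import, folding and proteolysis, 1 was at least 2-fold higher (Afg3l2, a subunit of an inner membrane protease, 2.65-fold, 2.22 to 3.17) and none was at least 2-fold lower. The shares over all genes with 50 UMIs were 13.2% and 7.70%. Leaving out all cells with 3 or more mitotic UMIs brought the mitochondrial group median to -0.55, Hspd1 to 0.952 and Hspa9 to 0.671.

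TRiC subunits differed little between tissues, as a sum of 1302 CPM in lymph node and 1371 CPM in tumour (1.05-fold, 1.03 to 1.08). Of 8, 7 reached 50 UMIs, Cct6b had 9 and 8 UMIs, and Cct6a was not analysed here. No subunit was 2-fold apart, where 13.2% of all genes with 50 UMIs were higher and 7.70% lower. The median log2 ratio was 0.11 against 0.14 over all genes. The subunits form 1 ring in equal number, yet their ratios ran from 0.729 to 1.57. Tcp1, the alpha subunit, had 1386 UMIs (130 CPM) and 3388 UMIs (203 CPM), 1.57-fold higher (1.47 to 1.67), and it overlaps Mrpl18 on the opposite strand (1363 and 3372 UMIs). Cct4, the delta subunit, had 2769 UMIs (259 CPM) and 3152 UMIs (189 CPM), 1.37-fold lower (1.30 to 1.44). Cct7, the eta subunit, had 1975 UMIs (185 CPM) and 3523 UMIs (211 CPM), 1.14-fold higher (1.08 to 1.21). Cct2, the beta subunit, had 1913 UMIs (179 CPM) and 3261 UMIs (196 CPM), 1.09-fold higher (1.03 to 1.16). Cct8, the theta subunit, had 1837 UMIs (172 CPM) and 3097 UMIs (186 CPM), 1.08-fold higher (1.02 to 1.15). Cct5 (epsilon) had 2641 UMIs (247 CPM) and 4291 UMIs (257 CPM), and Cct3 (gamma) had 1376 UMIs (129 CPM) and 2138 UMIs (128 CPM). Both of their intervals hold 1 (0.992 to 1.09 and 0.930 to 1.07). Of 9 prefoldin and TRiC partner genes, which hand clients to the ring, none was 2-fold higher or lower (13.2% and 7.70% of all genes). The one with most UMIs, Pfdn5, was at 799 and 698 CPM (ratio 0.874, 0.850 to 0.899). Under totals without mitochondrial-encoded and ribosomal protein genes the TRiC median was -0.23 and the mitochondrial median -0.33, against -0.20 over all genes. Without mitotic-list cells the TRiC median was -0.19.

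J-domain proteins of other compartments made up the largest group by number, 26 genes of which 18 reached 50 UMIs. In it, 2 were at least 2-fold higher (13.2% of all genes with 50 UMIs) and 1 at least 2-fold lower (7.70%), and the median log2 ratio was 0.31. Dnajb13, known from sperm flagella and motile cilia (chr7:100501716-100514960, minus strand), had 76 UMIs (7.12 CPM) and 437 UMIs (26.2 CPM), 3.68-fold higher (2.88 to 4.77). Its end overlaps Ucp2 on the opposite strand, so reads of the neighbour cannot be told apart from its own. Ucp2 had 5369 of the 10681101 lymph node UMIs and 8356 of the 16669263 tumour UMIs. Dnajc12, a co-chaperone of aromatic amino acid hydroxylases, had 41 UMIs (3.84 CPM) and 172 UMIs (10.3 CPM), 2.69-fold higher (1.90 to 3.88), and in cells with a Foxp3 UMI its ratio was 1.68. Dnajc27, a RAB-like GTPase with a J-domain, had 33 UMIs (3.09 CPM) and 23 UMIs (1.38 CPM), 2.24-fold lower (1.28 to 3.99). Those counts are small, and its ratio ran from 0.114 without mitotic-list cells to 0.488, apart from a value of 0 in the 59-cell setting.

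The 3 members of this group with most UMIs were all higher by less. Dnaja1, a cytosolic HSP70 partner, had 2246 UMIs (210 CPM) and 4680 UMIs (281 CPM), 1.34-fold higher (1.27 to 1.40). Dnajc8, found with the spliceosome, had 1822 UMIs (171 CPM) and 3182 UMIs (191 CPM), 1.12-fold higher (1.06 to 1.19). Dnajc9, which handles histones H3 and H4, had 1087 UMIs (102 CPM) and 2624 UMIs (157 CPM), 1.55-fold higher (1.44 to 1.66). Dnajb6, a suppressor of aggregation whose site is printed above, was at 98.9 and 146 CPM (1.47-fold, 1.37 to 1.58). Of the 9 small heat shock and other members, 3 reached 50 UMIs. Hspb11, an intraflagellar transport protein, had 414 UMIs (38.8 CPM) and 523 UMIs (31.4 CPM), 1.24-fold lower (1.08 to 1.41). Hspbap1 had 112 UMIs (10.5 CPM) and 113 UMIs (6.78 CPM), 1.55-fold lower (1.18 to 2.03). Hspb6 had 20 UMIs (1.87 CPM) and 48 UMIs (2.88 CPM), with an interval from 0.896 to 2.74.

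Regulators and co-chaperones outside the module were counted from further lists. A list of 4 genes held the heat shock factors Hsf1, Hsf2 and Hsf4, and Hsbp1, a heat shock factor binding protein. Of these, Hsf4 alone was at least 2-fold higher (13.2% of all genes with 50 UMIs), at 2.17-fold (1.15 to 4.39, from 13 and 44 UMIs). Hsf1, the main heat shock factor, was lower, at 17.5 CPM in lymph node and 13.9 CPM in tumour (ratio 0.792, 0.650 to 0.965). Of 18 HSP70 and HSP90 co-chaperones none was 2-fold apart in either direction (13.2% of all genes with 50 UMIs were higher and 7.70% lower). Their median log2 ratio was 0.31, and the one with most UMIs, Cdc37, which brings kinases to HSP90, was at 216 and 266 CPM (1.23-fold, 1.17 to 1.29).

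Levels also varied within each tissue. Cells of each library were clustered by themselves without the module's genes, and clusters are numbered by size with their leading genes. In lymph node, clusters 1 to 4 (759, 576, 569 and 130 cells, led by Ly6c1, Socs2, Tox2 and Rsad2) stayed within 253 to 283 CPM of inducible members, 756 to 878 CPM of mitochondrial members and 1184 to 1269 CPM of TRiC. Cluster 5, 116 cells led by Xcl1, Egr2 and Nr4a1, genes known to follow T cell receptor signals, stood at 646, 1564 and 1860 CPM of the same groups. Cluster 6, 52 cells led by Hist1h2ap, Nusap1 and Ube2c with a median of 15339 UMIs, stood at 952, 1087 and 1571 CPM. Hsp90aa1 was at 164 to 189 CPM in clusters 1 to 4, 523 CPM in cluster 5 and 829 CPM in cluster 6. Hspe1 peaked instead in cluster 5, at 926 CPM, against 410 to 467 CPM in clusters 1 to 4 and 571 CPM in cluster 6.

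In tumour, cluster 2 (253 cells led by Ung, Cdca7, Srm, E2f1 and Cdc6, genes of DNA replication and ribosome production) held the highest level of the cytosolic, mitochondrial and TRiC groups. Its inducible members summed to 996 CPM, mitochondrial members to 1497 CPM and TRiC to 1932 CPM. Cluster 1 (556 cells led by Il1rn and Spp1) stood at 408, 621 and 980 CPM, cluster 3 (213 cells led by interferon-induced genes) at 483, 542 and 855 CPM, and cluster 4 (153 cells led by Tcf7, Id3 and Klf2) at 460, 697 and 1087 CPM. Among clusters led by cell cycle genes, cluster 5 (127 cells, Foxm1 and Hist1h2ap) stood at 921, 1145 and 1676 CPM, whereas cluster 6 (103 cells, Cenpf, Ube2c and Cdc20) stood at 518, 626 and 1121 CPM. Depth differed too, with medians of 15259 UMIs in cluster 2, 21393 in cluster 5, 17101 in cluster 6 and 6920 in cluster 1. The ER group varied less, between 773 CPM in cluster 4 and 1275 CPM in cluster 7 (52 cells, led by Ccnb2).

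**Figure D4:**
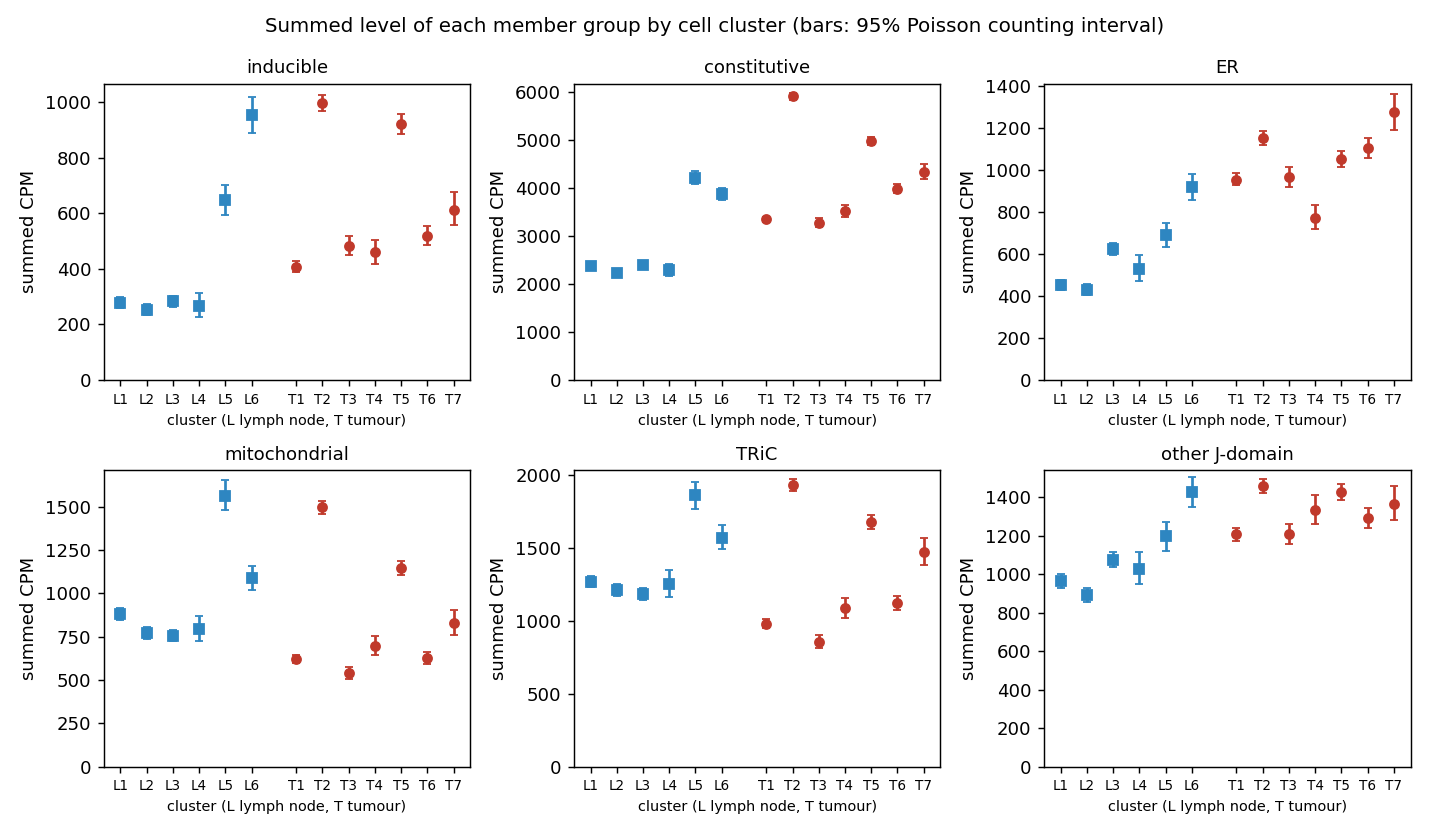
Summed CPM of 6 member groups (y axes) in 6 lymph node clusters (blue squares, L1 to L6) and 7 tumour clusters (red circles, T1 to T7), with 95% Poisson counting intervals as bars. Inducible, mitochondrial and TRiC levels are high together in L5, L6, T2 and T5, and the ER group shows the tumour clusters above the 4 largest lymph node clusters.

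Hspa1a had another distribution from Hsp90aa1 over the tumour clusters, but few cells set its order. It stood at 83.0 CPM in cluster 4, 74.2 CPM in cluster 3, 66.7 CPM in cluster 6, 50.5 CPM in cluster 1, 35.5 CPM in cluster 5, 23.7 CPM in cluster 2 and 8.91 CPM in cluster 7 (6 UMIs). In cluster 3 a single cell held 72 of 129 UMIs, and in cluster 6 one held 67 of 119. Without the 15 richest cells, which hold 49.2% of its UMIs, cluster 4 was still at 83.0 CPM, since none of them lies in it, and the other clusters were at 32.9 CPM (cluster 3), 23.7 CPM (6), 19.0 CPM (1), 18.9 CPM (5), 15.9 CPM (2) and 8.91 CPM (7). Hsp90aa1 was at 822 CPM in cluster 2 and 748 CPM in cluster 5, against 233 to 330 CPM in clusters 1, 3, 4 and 6. Hspd1 was at 303 CPM in cluster 2 and 205 CPM in cluster 5, against 60.4 to 77.7 CPM in those 4 clusters. Hspa8 was at 2136 CPM or more in every tumour cluster, whereas lymph node clusters lay between 1199 and 2005 CPM. Dnajc1 was at 69.8 to 140 CPM in tumour clusters and 30.7 to 72.7 CPM in lymph node clusters.

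A list of 12 mitotic genes, all at least 2-fold higher in tumour (13.2% of all genes with 50 UMIs), summed to 350 CPM in lymph node and 1562 CPM in tumour. Cells with 3 or more of its UMIs numbered 77 of 2202 in lymph node and 592 of 1457 in tumour. They were deeper than the other cells, with medians of 14672 against 4012 UMIs in lymph node and 15805 against 6355 UMIs in tumour, and the part of depth in what follows was not tested. Within tumour, 4 of 62 members with 50 UMIs were at least 2-fold higher in these cells, where 7.94% of all genes were, and 2 were at least 2-fold lower, against 3.66%. The 4 were Hspd1 (2.35-fold), Dnajc9 (2.28), Hspa9 (2.19) and Hsp90aa1 (2.11), and the lower pair was Dnajb2 and Dnajb9. Within lymph node, 6 of 55 members were at least 2-fold higher (9.77% of all genes) and 2 at least 2-fold lower (8.46%). The 6 were Hsp90aa1 (3.85-fold), Hsp90b1 (3.27), Dnajc9 (2.76), Hsph1 (2.62), Hspd1 (2.25) and Dnajb13 (2.03), and the lower ones were Dnajb4 and Dnajb9. Mitochondrial members had a median log2 ratio of 0.56 in tumour and 0.38 in lymph node, and TRiC members 0.56 and 0.34, against -0.06 and 0.07 over all genes. Hspa1a was at 41.5 CPM in such tumour cells and 52.0 CPM in the others (ratio 0.798, 0.689 to 0.923). Of the 15 cells richest in it, 9 were among the former, and without the 15, an alternative added after seeing the data, the levels were 16.6 and 34.5 CPM (ratio 0.481, 0.391 to 0.591). The size of this ratio thus rests on few cells.

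**Figure D5:**
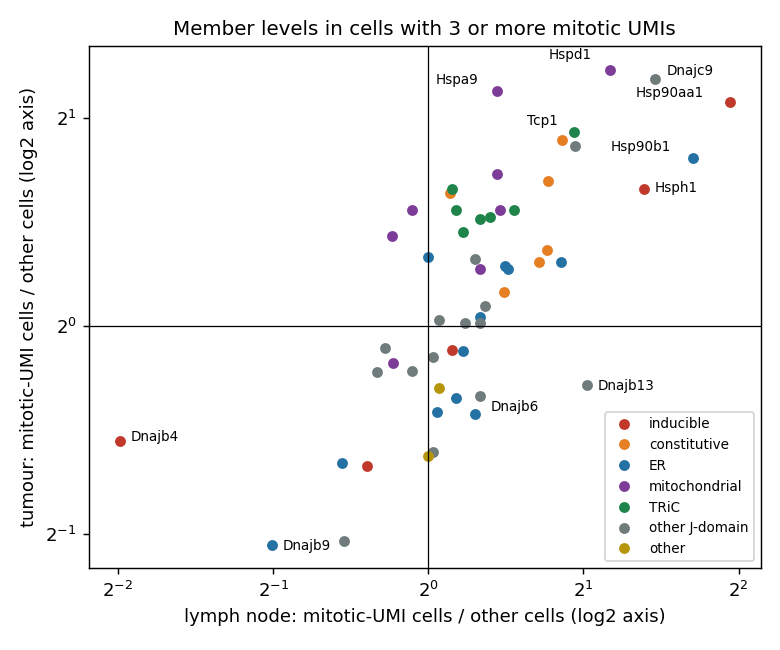
Ratio of each member's level in cells with 3 or more mitotic UMIs to that in the other cells, in lymph node (x axis, log2) and tumour (y axis, log2), coloured by group, for members with 50 UMIs in both splits. Hspd1, Dnajc9 and Hsp90aa1 lie at the upper right, Dnajb4 and Dnajb9 at the lower left.

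Spread over single cells was wide. The module's share of a cell's UMIs had a median of 0.595% in lymph node (5th to 95th percentile 0.346% to 1.01%) and 0.804% in tumour (0.515% to 1.5%). Inducible members made up a median of 0.0238% and 0.0421%, and reached 0.273% of 1 lymph node cell and 1.33% of 1 tumour cell. TRiC members had medians of 0.113% and 0.109%, and ER members 0.0458% and 0.0922%. The tissues thus overlapped for every group, and the ER group's lymph node 75th percentile (0.0758%) lay below its tumour median. The same held for the constitutive group (0.294% and a tumour median of 0.358%) and for all members together (0.730% and 0.804%).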

How the data were processed

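Raw UMI counts per gene and barcode were deposited as 1 unfiltered matrix per library, with no normalization by the authors. Cell Ranger and the mm10 build are named per the submitters' processing notes; no source used here states the version, annotation or use of strand. Barcodes were kept with at least 1811 (lymph node) or 3834 (tumour) UMIs, at least 200 genes, at most 10% mitochondrial UMIs, and fewer than 20 melanoma (Pmel, Dct, Mlana), 3 macrophage (C1qa, C1qb, Lyz2) and 2 B cell (Cd79a, Ms4a1) UMIs, which kept 2202 of 2226 and 1457 of 1489 barcodes at the UMI minimum. Doublets were not called and were kept. Of the 27998 gene identifiers, 27645 were found in GENCODE M21 (GRCm38), the source of the gene coordinates.

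Counts were summed over the cells of each library and scaled to CPM, so deeper cells weigh more. Ratios carry exact conditional-binomial 95% intervals, sums exact Poisson and shares Clopper-Pearson intervals. A gene was called 2-fold apart by its ratio, given at least 50 UMIs over both libraries. Intervals cover counting error only and treat UMIs as independent. Clusters came from Leiden (igraph 0.11.9) on 2000 variable genes, 30 components, 15 neighbours and resolution 0.6. Code used Python 3.11.15, numpy 2.4.6, scipy 1.17.1 and scikit-learn 1.9.0, and was tested on simulated data. Promoters are RefSeq's, GRCm38.p6.

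The members and lists were chosen with earlier results of these data known. Full values were given to every inducible, mitochondrial and TRiC member with 50 UMIs, to every other member 2-fold apart, and to the 3 members with most UMIs of each other group; of other lists, up to 3 genes each way past 2-fold, or the one with most UMIs. Genes named beyond that were chosen after their values were seen. Alternatives changed scaling, weight and depth per cell, cells included, UMI minimum, call rule and motif.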

Additional observations from a re-analysis of the deposited data

Results flagged for a closer look

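Dnajb13 and Dnajb6 pointed in opposite directions in the 2 tissues when cells with 3 or more mitotic UMIs were set against the other cells. The Dnajb13 ratio was 2.03 in lymph node (1.09 to 3.58, 16 and 60 UMIs) and 0.822 in tumour (0.677 to 0.999, 250 and 187 UMIs). The Dnajb6 ratio was 1.26 in lymph node (1.05 to 1.5) and 0.791 in tumour (0.730 to 0.858). The difference between tissues was not tested in either case, since each tissue is 1 library.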

How the results depend on the processing

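No paired analysis was possible because each tissue has 1 library and the labels number no replicates. The counts of 11 members at least 2-fold higher and 2 at least 2-fold lower became 6 and 5 with totals without mitochondrial-encoded and ribosomal protein genes (9.12% and 13.5% of all genes). They became 7 and 0 when the whole interval had to lie beyond 2-fold (8.80% and 4.17% of all genes). The lower count was 1 of 57 members with a minimum of 200 UMIs (4.70% of all genes) and 4 of 70 with no minimum beyond 1 UMI (12.8%). It was 8 of 65 without cells holding 3 or more immediate-early UMIs (15.6% of all genes), where 59 tumour cells were left. In that last setting the Bag3 and Hspa13 ratios were 0 and so reversed. Co-chaperones at least 2-fold higher went from 0 to 2 with every cell weighing the same and without mitotic-list cells. Immediate-early genes at least 2-fold lower went from 1 to 0 in both of these settings. Over all genes, 14.3% were higher and 7.85% lower in the former, and 14.1% and 8.20% in the latter. ER folding and stress genes at least 2-fold higher went from 6 to 3 without mitotic-list cells. Members with a heat shock element went from 17 to 3 with the 3-unit form. Of 910 recomputed member ratios, 669 moved by less than the counting interval, 239 by more, and 2, those of Bag3 and Hspa13, counted as reversed. The 239 include ratios that crossed 1. Among them were Hspa9, from 1.12 to 0.885 with totals without mitochondrial-encoded and ribosomal protein genes, and Hspd1, from 1.52 to 0.952 without mitotic-list cells. TMM scaling shifted log2 ratios by -0.10. Thinning to more UMIs per cell left out 568 lymph node cells and no tumour cell. Without the 15 cells richest in Hspa1a its ratio between mitotic-list and other tumour cells moved from 0.798 to 0.481. Of the alternatives, 5 were chosen after seeing the data, as said beside their values. Depth limits members with few UMIs: 19 of 84 fell under 50.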

Other observations

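Member groups also differed between cells and near-empty droplets (10 to 100 UMIs) of the same library. In lymph node, mitochondrial members summed to 885 CPM in cells and 1213 CPM in near-empty droplets, TRiC members to 1302 and 1662 CPM, and other J-domain proteins to 1036 and 1403 CPM. In tumour the same groups stood at 940 and 1421 CPM, 1371 and 1859 CPM, and 1333 and 1688 CPM. ER members were nearly equal in both compartments, at 552 and 566 CPM in lymph node and 1041 and 977 CPM in tumour. Near-empty droplets showed the same order of tissues as cells for each of these groups. Their source was not tested.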
